A study of Mus musculus with 31 samples.

Results

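The comparison set 3 libraries of TGFBRII knockout natural killer (NK) cells taken after 24 h with TGFB1 against 3 taken after 4 h, out of 31 libraries of sorted mouse NK cells in all. It covered every autosomal gene that passed a filter on low counts, which was 9751 of the 10275 genes tested and of the 27179 genes in the table. NK cells belong to the innate lymphocytes and kill infected or transformed cells. TGFB1 is a cytokine that holds back their growth and killing: it binds the type II receptor, encoded by Tgfbr2, which activates a type I receptor and, through it, SMAD transcription factors. Cells that lack the type II receptor are not expected to receive this signal, so the comparison asks whether the changes found in such cells at 4 h were still there at 24 h.

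The other genotypes were wild type (WT) and CIS KO. The latter lacks the protein CIS, the product of Cish, which dampens what NK cells do when they meet interleukin 15. TGFBRII KO had 3 unstimulated libraries, 3 at 4 h and 3 at 24 h, WT had 4, 2 and 4, and CIS KO had 4, 4 and 4. All stimulated groups received TGFB1, and no cells kept for 24 h without it were analysed here, so an effect of the added protein and an effect of time in culture cannot be told apart. The labels name no promoter, Cre driver, strain, age or number of animals for the knockout, and nothing says that the 3 libraries of a group came from separate animals, so p-values measure the spread between these libraries. Total counts ran from 701095 to 862331 in the 9 TGFBRII KO libraries and from 297561 to 1403005 over all libraries, which is shallow for genes of few transcripts.

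Tgfbr2 counts (chromosome 9, 116087695 to 116175363 in GRCm38.p6) did not show the deletion. They were 236, 276 and 199 CPM (counts scaled to library size and composition) at 4 h and 232, 245 and 225 CPM at 24 h, given here and below in the order of replicates 1, 2 and 3. The groups overlapped (log2 fold change -0.01 ± 0.14), and counts summed over the whole gene cannot show the loss of a few exons. The labels were therefore checked on the 30 genes that rose most at 4 h in WT and CIS KO, chosen without the TGFBRII KO libraries. Their summed level went from 113 CPM in unstimulated WT to 1857 CPM at 4 h and 2038 CPM at 24 h. For CIS KO the levels were 108, 1834 and 1946 CPM. In TGFBRII KO it was 53.2, 68.7 and 66.8 CPM unstimulated and 53.4, 64.1 and 46.4 CPM at 24 h. At 4 h it was 45.8, 148 and 67.4 CPM, so replicate 2 at 4 h stood apart from the other 8 libraries of this genotype, and results that rest on it are given with and without it.

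The cells carried NK transcripts at both times. None of 14 measured NK markers was called, next to 8.42% of all genes called in either direction. The log2 fold change was negative for 11 of 14 (median -0.08). In 4 of them all 24 h libraries were below all 4 h libraries, and in 1 all were above. Among the 14 were Ncr1, the receptor NKp46, at 231, 216 and 213 CPM at 4 h and 197, 192 and 195 CPM at 24 h, and Klrb1c, the antigen NK1.1, at 694, 713 and 678 CPM at 4 h and 796, 715 and 795 CPM at 24 h. Most markers of other cells did not pass the filter: 1 of 10 B cell, 4 of 15 myeloid, 2 of 12 type 2 and 3 innate lymphoid, 5 of 15 stromal or epithelial and 0 of 10 erythroid or platelet markers did. None of those that passed was called, next to the same 8.42% of all genes. Of 15 T cell markers 9 passed. Their summed level was 871 to 902 CPM at 4 h, 977.5 to 1015 CPM at 24 h and 1027 to 1094 CPM in unstimulated cells. Cd3d, a chain of the CD3 complex that NK cells can also transcribe, was at 47, 60.5 and 59.4 CPM at 4 h and 91.4, 84.2 and 112 CPM at 24 h. All its 24 h libraries were above all its 4 h libraries (log2 fold change 0.79 ± 0.18, adjusted p = 0.00497, edgeR's quasi-likelihood test as for every adjusted p here). Cd3g rose as well (0.49 ± 0.15, adjusted p = 0.0325), while Cd8a, Cd5 and Tcf7 did not pass the filter. Cd3d did not pass without 24 h replicate 3 or without 4 h replicate 1 (adjusted p = 0.0575 to 0.0613). Cd3g did not pass without 24 h replicate 1, 2 or 3 or without 4 h replicate 1 or 2 (adjusted p = 0.0745 to 0.155). The part of T cells in the results was not tested.

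Between 4 h and 24 h, 821 genes (8.42% of those tested) passed an adjusted p of 0.05. Of these, 431 genes (4.42%) were higher at 24 h and 390 (4%) were lower, and 193 of the 821 differed by at least 2-fold. The median log2 fold change over all 9751 genes was 0.00, which the scaling sets near 0. In 1690 genes (17.3%) all 24 h libraries were above all 4 h libraries, and in 1523 (15.6%) all were below. The number of calls rested on every library: leaving out 24 h replicate 1, 2 or 3 gave 285, 215 and 225 higher and 324, 257 and 182 lower, and leaving out 4 h replicate 1, 2 or 3 gave 218, 283 and 280 higher and 287, 282 and 240 lower.

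**Figure D1:**
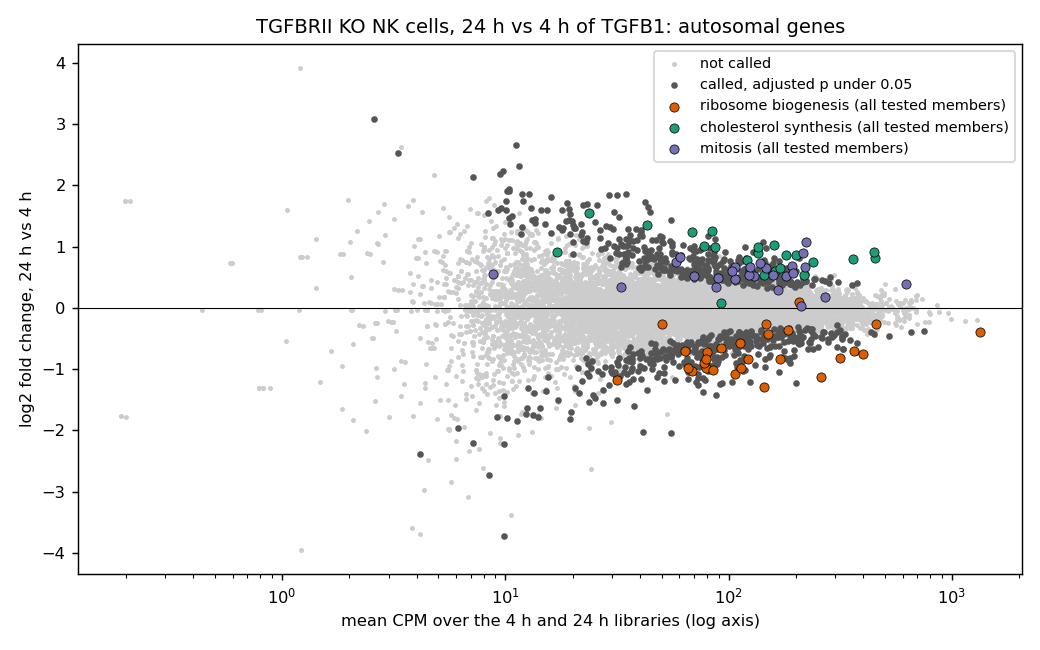
Change of each of 9751 autosomal genes in TGFBRII KO cells: mean CPM over the 4 h and 24 h libraries (x axis, log scale) against the log2 fold change, 24 h vs 4 h (y axis). Dark points are the 821 called genes; the coloured points are all tested members of 3 gene lists, with ribosome biogenesis below 0 and cholesterol synthesis and mitosis above 0 apart from 1 ribosome biogenesis gene near 0.

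The genes that had been raised at 4 h and fell by 24 h included the machinery that builds ribosomes. Ribosome biogenesis takes place in the nucleolus, where RNA polymerase I transcribes the ribosomal RNA precursor, small nucleolar ribonucleoproteins modify it, and assembly factors cut and fold it into subunits; it accompanies cell growth and is driven in part by the transcription factor MYC. Of 27 tested genes of this kind, 21 fell and 0 rose, against 4% lower and 4.42% higher of all genes. In bulk RNA, fewer cells of a type and less RNA per cell cannot be told apart, here or below. The median log2 fold change of the list was -0.82. In 25 of 27 all 24 h libraries were below all 4 h libraries, against 15.6% of all genes. The summed level of the list was 6452, 6661 and 6922 CPM at 4 h and 4496, 4401 and 4240 CPM at 24 h, next to 4289, 4206 and 4526 CPM in unstimulated cells.

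Among its genes for ribosomal RNA transcription, Nolc1 (chromosome 19, 46075847 to 46085543), a nucleolar phosphoprotein that escorts small nucleolar ribonucleoproteins, was at 302, 346 and 419.5 CPM at 4 h and 174, 167 and 149 CPM at 24 h. All 4 h libraries were far above the 24 h libraries, whose values lay among the unstimulated ones or just above them (168, 127 and 151 CPM), and the log2 fold change was -1.12 ± 0.14 (adjusted p = 2.08e-06). Mybbp1a (chromosome 11, 72441327 to 72451770), a nucleolar regulator of RNA polymerase I transcription, went from 201, 203 and 250.3 to 119, 136 and 112 CPM, again without overlap (-0.84 ± 0.11, adjusted p = 2.12e-06). The polymerase subunits Polr1a and Polr1b also fell (-0.83 ± 0.17 and -1.17 ± 0.25), whereas Polr1c, a subunit shared with RNA polymerase III, was the 1 tested member with a positive value (0.09 ± 0.16, adjusted p = 0.817). Members named beyond the 4 with the smallest p of a list, here and below, were chosen after their values were seen.

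Of the genes that modify and process the precursor, Nop58 (chromosome 1, 59684961 to 59711510), a core protein of the box C/D ribonucleoproteins, was at 397, 374 and 438 CPM at 4 h and 259, 224 and 205 CPM at 24 h. The lowest 4 h library was well above the highest 24 h library, and the log2 fold change was -0.82 ± 0.10 (adjusted p = 1.56e-06). Heatr1 (chromosome 13, 12395375 to 12438893), part of the small subunit processome, went from 157, 139.7 and 157 to 71.2, 85.4 and 72.6 CPM (-0.99 ± 0.13, adjusted p = 4.12e-06), so its 24 h values lay close to the 74.7, 90.4 and 85 CPM of unstimulated cells. The assembly factors Gnl3, Wdr12 and Bop1 had log2 fold changes of -1.30, -1.09 and -1.03. The abundant nucleolar proteins Ncl (-0.39 ± 0.13, adjusted p = 0.0505) and Npm1 (-0.27 ± 0.15, adjusted p = 0.322) did not pass the test.

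Enzymes that modify RNA outside this list lay among the genes with the largest falls. Pus7 (chromosome 5, 23740165 to 23783711), a pseudouridine synthase, was at 89.1, 77.8 and 99.45 CPM at 4 h against 27.3, 20.1 and 16.7 CPM at 24 h and 19, 19.3 and 20.7 CPM in unstimulated cells. Its 4 h libraries were all several times above the others, and the log2 fold change was -2.05 ± 0.24 (adjusted p = 1.24e-06). Qtrt2, a subunit of the enzyme that places queuine in transfer RNA, fell from 34.9, 33.1 and 22.9 to 9.50, 8.79 and 7.14 CPM (-1.81 ± 0.44, adjusted p = 0.00709). Of 20 genes for MYC, its partners and its targets, 4 fell and 2 rose (median -0.16), next to 4% lower and 4.42% higher of all genes. Srm, the spermidine synthase, fell from 164, 171 and 186 to 79.5, 79.15 and 66.7 CPM with no overlap (-1.21 ± 0.15, adjusted p = 1.56e-06), as did Tfap4 (-0.93), Ppan (-0.68) and Eif4e (-0.44), while Mxd4 and Mnt, which compete with MYC for its partner MAX, rose (0.72 and 0.44). Myc itself had a log2 fold change of -0.46 ± 0.38 (adjusted p = 0.536). Tfap4 did not pass without 24 h replicate 3 or without 4 h replicate 1 or 2 (adjusted p = 0.0549 to 0.0997). Mxd4 did not pass without 24 h replicate 3 or without 4 h replicate 1 or 3 (adjusted p = 0.0509 to 0.0872). Mnt did not pass without 24 h replicate 1, 2 or 3 or without 4 h replicate 1 or 3 (adjusted p = 0.0874 to 0.24).

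The Mybbp1a promoter is shown because E-boxes, the sequence that MYC binds, were searched in the promoters of this list. The window is 250 bases before to 50 after the RefSeq start of GRCm38.p6, plus strand, chr11:72441077-72441376, and the capitals mark CACGTG.
Mybbp1a: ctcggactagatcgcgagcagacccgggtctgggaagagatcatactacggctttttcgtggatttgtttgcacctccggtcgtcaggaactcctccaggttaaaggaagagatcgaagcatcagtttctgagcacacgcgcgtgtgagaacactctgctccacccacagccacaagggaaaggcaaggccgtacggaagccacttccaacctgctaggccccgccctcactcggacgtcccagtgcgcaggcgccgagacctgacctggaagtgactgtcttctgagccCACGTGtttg
CACGTG, read on both strands like the motifs below, of which none contains another, lay in 6 of the 22 promoters of the list that the table held (27.3%), in 10.5% of 7757 promoters of tested autosomal genes and in 7.24% of all 27025 promoters of this length. A match is a description and not a binding site.

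The genes that had been low at 4 h and rose by 24 h were led by cholesterol synthesis. Cells make cholesterol from acetyl-CoA through mevalonate, farnesyl diphosphate, squalene and lanosterol, and the transcription factor SREBP2 raises nearly all of these enzymes together when membrane sterol is low. Of 22 tested genes, 20 rose and 0 fell, against 4.42% higher and 4% lower of all genes. The median log2 fold change of the list was 0.88. In 21 of 22, all 24 h libraries were above all 4 h libraries, against 17.3% of all genes. The summed level was 2752, 2985 and 2749 CPM at 4 h, 4650, 5246 and 4827 CPM at 24 h and 4212, 4098 and 4140 CPM in unstimulated cells, so every 24 h library was also above every unstimulated one.

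Of the early steps to farnesyl diphosphate, these rose: Hmgcs1 0.82, Mvk 1.00, Pmvk 0.99, Mvd 0.65 and Fdps 0.53. Idi1 was at 0.92 ± 0.31 and did not pass (adjusted p = 0.0616). Fdft1 (chromosome 14, 63145150 to 63181687), squalene synthase, the first enzyme committed to sterols, was at 47, 54.7 and 46.9 CPM at 4 h and 109, 132 and 113 CPM at 24 h. Its 24 h libraries were all above those of both other times (93.7, 92.8 and 93.6 CPM in unstimulated cells), and the log2 fold change was 1.26 ± 0.13 (adjusted p = 5.47e-07). Lss (chromosome 10, 76531565 to 76557139), which closes the sterol rings, went from 36.1, 41.8 and 44.6 to 89, 94.2 and 106 CPM (1.24 ± 0.15, adjusted p = 1.56e-06). Fdps did not pass without 24 h replicate 2 or 3 or without 4 h replicate 1, 2 or 3 (adjusted p = 0.0758 to 0.174).

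In the late steps, Cyp51 (chromosome 5, 4080674 to 4104697), the lanosterol demethylase, was at 279, 328 and 320.1 CPM at 4 h and 546, 634 and 573 CPM at 24 h, without overlap (0.92 ± 0.12, adjusted p = 6.76e-06). Sc5d (chromosome 9, 42251592 to 42264300), the lathosterol desaturase, went from 149, 143 and 137 to 252, 280.2 and 245 CPM (0.86 ± 0.11, adjusted p = 6.50e-06). The largest log2 fold changes of the list were those of the sterol reductases Tm7sf2 (1.54 ± 0.29) and Dhcr7 (1.36 ± 0.19). Insig1, which holds back SREBP2 when sterol is plentiful, rose too (1.01 ± 0.18). Srebf2, the gene of SREBP2, was at 0.07 ± 0.23 (adjusted p = 0.914).

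Promoters of Cyp51 and Hmgcs1 (the latter chosen after its values were seen) are shown because CCAAT boxes, the sequence of the factor NF-Y, and a sterol response motif were searched in the list. Cyp51 is on the minus strand, chr5:4104648-4104947, and Hmgcs1 on the plus strand, chr13:119690101-119690400, both GRCm38.p6. Capitals mark CCAAT, its reverse complement, and TCACNCCAC.
Cyp51: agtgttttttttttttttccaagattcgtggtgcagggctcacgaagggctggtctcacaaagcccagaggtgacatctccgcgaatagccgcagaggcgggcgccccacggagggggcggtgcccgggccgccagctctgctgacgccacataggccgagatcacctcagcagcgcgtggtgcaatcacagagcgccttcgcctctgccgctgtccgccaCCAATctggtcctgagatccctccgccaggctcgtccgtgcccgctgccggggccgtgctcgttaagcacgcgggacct
Hmgcs1: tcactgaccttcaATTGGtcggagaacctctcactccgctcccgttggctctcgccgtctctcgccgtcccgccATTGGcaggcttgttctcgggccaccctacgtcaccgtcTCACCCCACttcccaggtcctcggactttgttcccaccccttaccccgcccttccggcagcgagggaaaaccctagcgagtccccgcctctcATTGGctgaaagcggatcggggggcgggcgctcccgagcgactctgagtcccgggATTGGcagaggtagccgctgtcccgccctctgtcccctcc
CCAAT lay in 13 of the 15 cholesterol promoters that the table held (86.7%), against 39.0% of the promoters of tested autosomal genes and 37.9% of all promoters. Cyp51 held 1 match, 29 bases upstream of the start, and Hmgcs1 held 4. TCACNCCAC lay in 1 of 15 (6.67%), that of Hmgcs1 137 bases upstream, against 0.941% and 1.22%.

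Lipid genes beside cholesterol synthesis were less uniform, and their counts are to be read next to 4.42% higher and 4% lower of all genes. Of 11 fatty acid synthesis genes, 4 rose and 0 fell (median 0.50). They were Scd1, which makes monounsaturated fatty acids (97.55, 121 and 108 CPM at 4 h and 144, 232 and 167 CPM at 24 h; 0.74 ± 0.16, adjusted p = 0.00326), Fads2 (1.08 ± 0.34), Acsl3 (1.01 ± 0.27) and Elovl6 (0.68 ± 0.19), while Fasn, the synthase itself, was at 0.26 ± 0.37 (adjusted p = 0.763). Unlike the cholesterol genes, Scd1 was not low at 4 h, since unstimulated cells held 118, 107 and 97.2 CPM. Without 24 h replicate 2, the highest library for Scd1, 0 of these 11 genes passed, and leaving out any other library gave between 1 and 4. Of 7 targets of the sterol-sensing LXR receptors, 3 rose: Abcg1, a cholesterol exporter (31.3, 23 and 18.3 CPM at 4 h and 42.7, 45.2 and 46.4 CPM at 24 h; 0.88 ± 0.23, adjusted p = 0.0129), Mylip, a ubiquitin ligase (0.66 ± 0.20), and Lpcat3 (0.63 ± 0.14), and 1 passed without 24 h replicate 2 or without 4 h replicate 3. Scd1 did not pass without 24 h replicate 2 (adjusted p = 0.0891). Fads2 did not pass without 24 h replicate 2 or 3 or without 4 h replicate 1, 2 or 3 (adjusted p = 0.0571 to 0.193). Acsl3 did not pass without 24 h replicate 2 or 3 or without 4 h replicate 1 (adjusted p = 0.0524 to 0.116). Elovl6 did not pass without 24 h replicate 2 or 3 or without 4 h replicate 1 or 2 (adjusted p = 0.0798 to 0.136). Abcg1 did not pass without 4 h replicate 3 (adjusted p = 0.102). Mylip did not pass without 24 h replicate 1, 2 or 3 or without 4 h replicate 1 or 3 (adjusted p = 0.0663 to 0.231). Lpcat3 did not pass without 24 h replicate 2 (adjusted p = 0.0626).

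**Figure D2:**
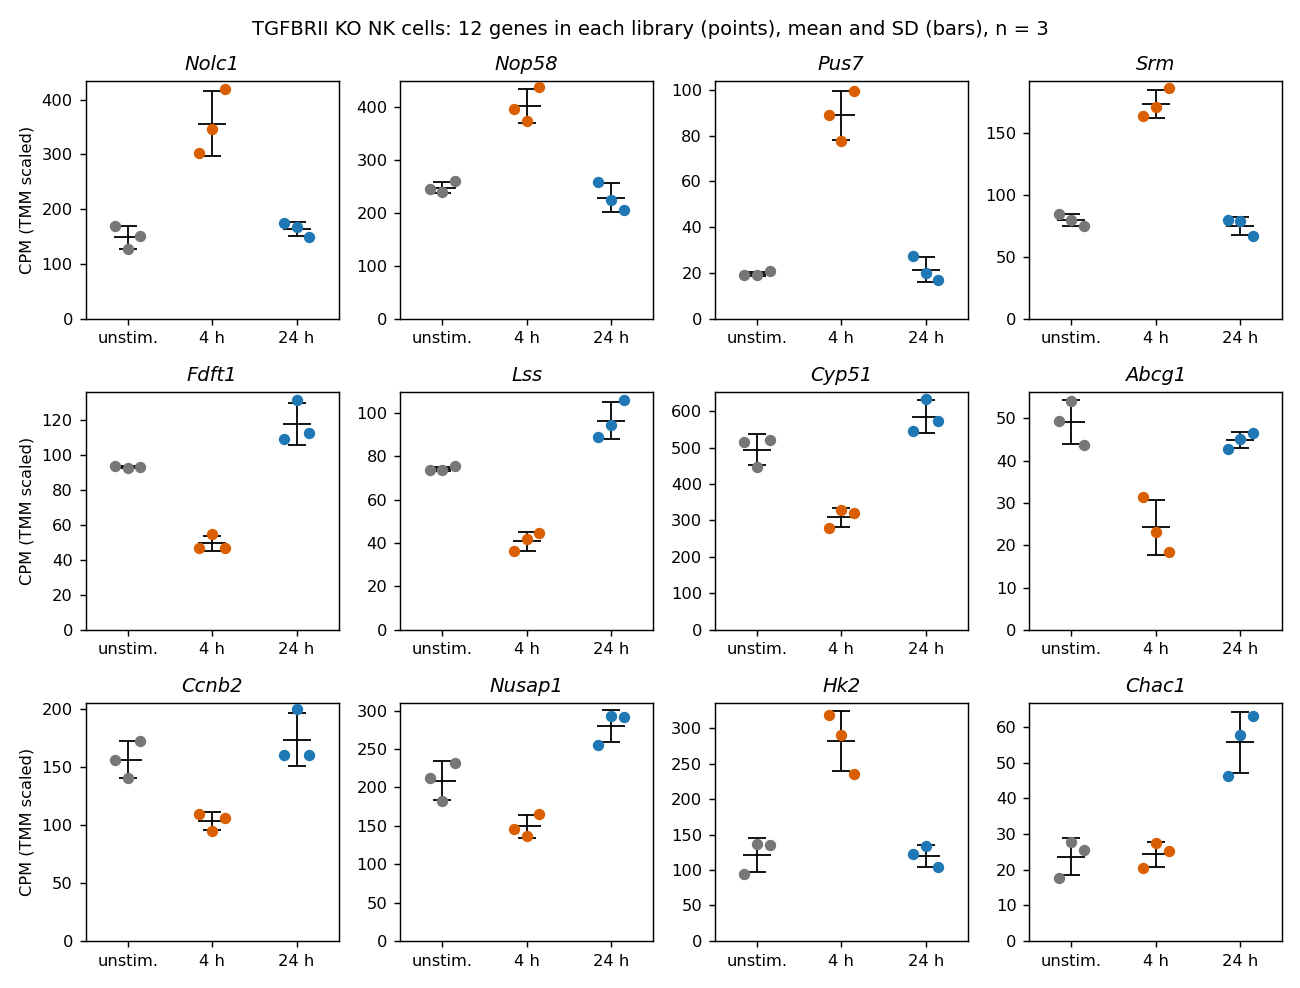
CPM (y axis, from 0) of 12 genes in each of the 9 TGFBRII KO libraries, with unstimulated in grey, 4 h in orange and 24 h in blue; points are libraries, bars the mean and SD of 3. Nolc1, Nop58, Pus7, Srm and Hk2 were highest at 4 h, Fdft1, Lss, Cyp51, Abcg1, Ccnb2 and Nusap1 lowest at 4 h, and Chac1 was raised at 24 h alone.

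Genes of mitosis rose from 4 h to 24 h. These genes build the spindle, hold chromosomes at the metaphase plate and drive cytokinesis, and are transcribed mostly in G2 and M phase. Of 27 tested, 17 rose and 0 fell (median 0.55), against 4.42% higher and 4% lower of all genes. In 23 of 27 all 24 h libraries were above all 4 h libraries, against 17.3% of all genes. The summed level was 3358, 3275 and 3550 CPM at 4 h, 4684, 5261 and 4822 CPM at 24 h and 4122, 3653 and 4504 CPM in unstimulated cells. The count was 7 without 24 h replicate 2, 11 without 24 h replicate 3 or without any 1 of the 4 h libraries, and 15 without 24 h replicate 1.

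Of its kinases and cyclins, Ccnb2 (chromosome 9, 70407689 to 70421554), cyclin B2, was at 109.6, 95 and 106 CPM at 4 h and 160.2, 199.8 and 161 CPM at 24 h. The groups did not overlap, the unstimulated libraries lay at 156, 141 and 172 CPM, and the log2 fold change was 0.74 ± 0.15 (adjusted p = 0.0011). Aurka (chromosome 2, 172356190 to 172370886), the centrosome kinase Aurora A, went from 96.35, 92.2 and 99.45 to 140.1, 178 and 142 CPM (0.67 ± 0.14, adjusted p = 0.00183), and Plk1, Cdk1 and Bub1 had values of 0.54, 0.51 and 0.83. Of the spindle and kinetochore proteins, Nusap1 (chromosome 2, 119618298 to 119650165), which bundles spindle microtubules, went from 146, 137 and 166 to 255, 293 and 292 CPM. All 24 h libraries were above those of both other times (213, 182 and 232 CPM unstimulated; 0.90 ± 0.15 against 4 h, adjusted p = 0.000138). Cenpf (chromosome 1, 189640606 to 189688107), a kinetochore protein, went from 124, 135 and 167 to 268, 320.4 and 312 CPM, with unstimulated libraries at 181, 128 and 209 CPM (1.07 ± 0.24, adjusted p = 0.00317). The proliferation marker Mki67 (0.28 ± 0.22, adjusted p = 0.508) and Top2a (0.39 ± 0.15, adjusted p = 0.0959) did not pass. Plk1 did not pass without 24 h replicate 2 (adjusted p = 0.0752). Cdk1 did not pass without 24 h replicate 2 or 3 or without 4 h replicate 1 or 3 (adjusted p = 0.0655 to 0.0891). Bub1 did not pass without 24 h replicate 2 or without 4 h replicate 2 or 3 (adjusted p = 0.0536 to 0.0926).

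Genes of DNA replication, which act in the preceding S phase, did not share this change. Of 28 tested, 1 rose, Rrm1, a subunit of ribonucleotide reductase (0.39 ± 0.13, adjusted p = 0.0482), and the median was 0.09. This count and those below are to be read next to 4.42% higher and 4% lower of all genes. Of 13 G1 cyclins and cell cycle inhibitors, Ccnd1, cyclin D1, fell (-1.54 ± 0.46, adjusted p = 0.0307) and Cdkn2d, the inhibitor p19, rose (0.69 ± 0.16, adjusted p = 0.00529). Histone genes, whose main transcripts lack the poly(A) tail, had 2 of 10 higher, the replication-independent linker histone H1f0 (0.68) and H2bc21 (1.14). Without 4 h replicate 2 Ccnd1 was at -0.75 ± 0.47 (adjusted p = 0.419). Ccnd1 did not pass without 24 h replicate 1 or 3 or without 4 h replicate 2 (adjusted p = 0.108 to 0.419). H1f0 did not pass without 4 h replicate 3 (adjusted p = 0.0545). H2bc21 did not pass without 24 h replicate 1 or 3 or without 4 h replicate 1 or 2 (adjusted p = 0.0632 to 0.114). Rrm1 (adjusted p = 0.0636 to 0.26) did not pass with any 1 of the 6 libraries left out.

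Promoters of Ccnb2 and Aurka are shown because the CCAAT box and the cell cycle homology region TTTGAA, bound by the DREAM and MuvB complexes, were searched in the mitosis list. Both are on the minus strand of GRCm38.p6, Ccnb2 at chr9:70421505-70421804 and Aurka at chr2:172370521-172370820, and capitals mark both motifs. The table places the Aurka window at a start inside the gene's annotated span.
Ccnb2: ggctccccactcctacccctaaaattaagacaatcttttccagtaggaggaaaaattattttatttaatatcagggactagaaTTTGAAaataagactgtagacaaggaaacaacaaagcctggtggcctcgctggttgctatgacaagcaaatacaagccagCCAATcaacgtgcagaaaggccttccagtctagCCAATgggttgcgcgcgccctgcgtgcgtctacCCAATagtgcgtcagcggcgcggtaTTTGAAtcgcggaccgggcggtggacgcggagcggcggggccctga
Aurka: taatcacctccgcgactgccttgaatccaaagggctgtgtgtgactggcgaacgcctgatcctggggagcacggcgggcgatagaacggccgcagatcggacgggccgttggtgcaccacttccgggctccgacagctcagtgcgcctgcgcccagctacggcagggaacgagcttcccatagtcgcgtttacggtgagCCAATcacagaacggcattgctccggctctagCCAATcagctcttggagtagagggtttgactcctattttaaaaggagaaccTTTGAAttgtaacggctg
In 23 mitosis promoters that the table held, CCAAT lay in 19 (82.6%, against 39.0% of the promoters of tested autosomal genes and 37.9% of all). TTTGAA lay in 17 (73.9%, against 12% of the promoters of tested autosomal genes and 18.1% of all). Both motifs were in 16 (69.6%, against 5.07% of the promoters of tested autosomal genes). Ccnb2 held 3 CCAAT boxes, 87, 54 and 21 bases upstream of the start, and Aurka held 2, 51 and 19 bases upstream.

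**Figure D3:**
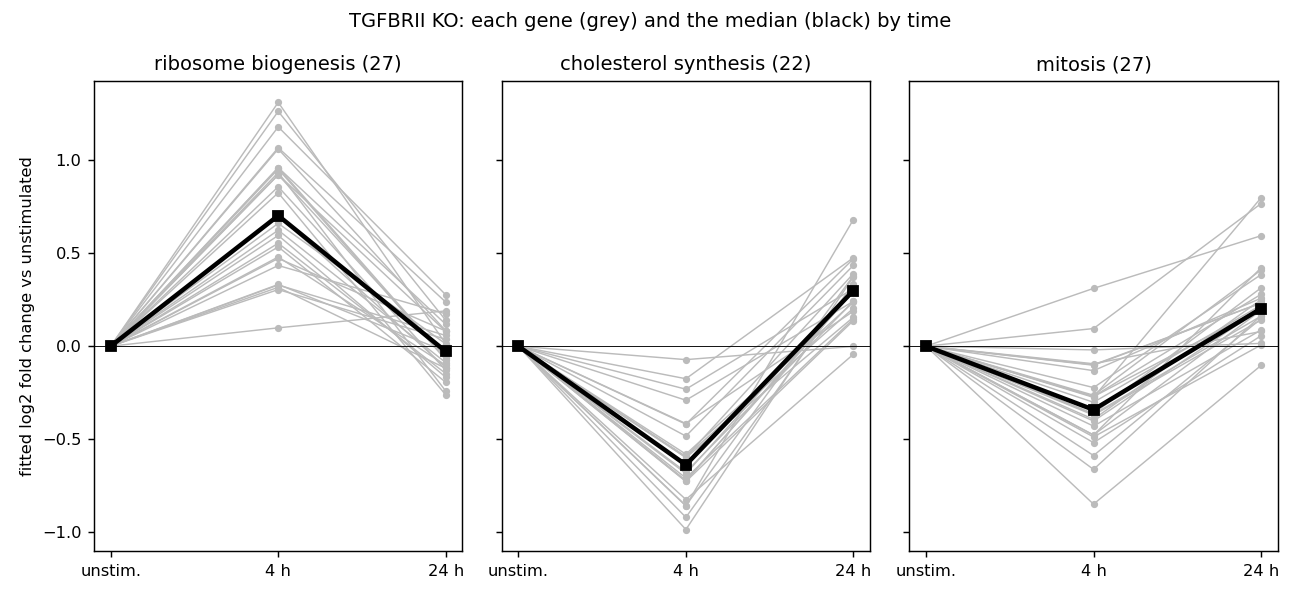
Fitted log2 fold change against unstimulated cells (y axis) at 4 h and 24 h of TGFB1 (x axis, unstimulated set to 0) for each tested gene of 3 lists (grey) and the list median (black) in TGFBRII KO. The median of ribosome biogenesis was 0.70 at 4 h and -0.03 at 24 h, that of cholesterol synthesis -0.64 and 0.30, and that of mitosis -0.34 and 0.20.

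Genes of the hypoxia response, which the factor HIF1 raises, moved in both directions. Of 23 tested, 7 rose and 4 fell (median 0.41), next to 4.42% higher and 4% lower of all genes. Hk2, hexokinase 2, the first step of glycolysis, was at 318, 291 and 236 CPM at 4 h and 122, 133 and 104 CPM at 24 h, next to 93.7, 136 and 135 CPM in unstimulated cells. The 4 h libraries were all the highest (-1.23 ± 0.24, adjusted p = 0.000779), and Pfkfb3, which activates glycolysis through fructose 2,6-bisphosphate, went from 107, 97.9 and 91.45 to 34.4, 56.5 and 50 CPM (-1.07 ± 0.19, adjusted p = 0.000325). Vegfa, a growth factor of blood vessels (-1.17 ± 0.27), and Ankrd37 (-0.97 ± 0.24) fell with them. Bnip3l, which marks mitochondria for autophagy, rose from 144, 157 and 149.8 to 252, 265 and 276 CPM (0.81 ± 0.15, adjusted p = 0.000392). Bnip3 (0.72), the pyruvate dehydrogenase kinase Pdk1 (0.80), the prolyl hydroxylase P4ha2 (0.81), Selenbp1 (1.08), Pfkfb4 (1.60) and the histone demethylase Kdm4b (0.60) rose as well. The higher count was 3 without 24 h replicate 2 or 3 or without 4 h replicate 1 or 3, and 4 with DESeq2. In the glycolysis list 1 of 14 rose, Hk1 (0.43 ± 0.12, adjusted p = 0.0195), and in oxidative phosphorylation 0 of 25 were called (median 0.01). Both counts are to be read next to the same shares of all genes. Ankrd37 did not pass without 24 h replicate 3 or without 4 h replicate 1 (adjusted p = 0.0536 to 0.109). P4ha2 did not pass without 24 h replicate 1, 2 or 3 or without 4 h replicate 1 or 3 (adjusted p = 0.0621 to 0.19). Pfkfb4 did not pass without 24 h replicate 2 or 3 or without 4 h replicate 1 or 3 (adjusted p = 0.0609 to 0.117). Kdm4b did not pass without 24 h replicate 2 or 3 or without 4 h replicate 1 or 3 (adjusted p = 0.112 to 0.166). Hk1 did not pass without 24 h replicate 2 or 3 or without 4 h replicate 1 or 3 (adjusted p = 0.0526 to 0.122). Bnip3 (adjusted p = 0.0731 to 0.217) did not pass with any 1 of the 6 libraries left out.

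Stress lists gave single calls rather than groups, to be read next to 8.42% of all genes called in either direction. Of 18 p53 targets, Aen, a nuclease induced by p53, fell from 37.3, 34.6 and 38.9 to 20.2, 10.05 and 9.53 CPM without overlap (-1.46 ± 0.27, adjusted p = 0.000562), and Phlda3 fell (-0.48 ± 0.14, adjusted p = 0.0332), while Cdkn1a, the inhibitor p21, was at -0.31 ± 0.12 (adjusted p = 0.12). Of 24 genes of amino acid shortage and ATF4, Atf3 fell (8.43, 8.64 and 12.6 CPM at 4 h and 2.37, 1.26 and 3.57 CPM at 24 h; -1.97 ± 0.60, adjusted p = 0.0358) and Chac1, which cleaves glutathione, rose from 20.5, 27.4 and 25.15 to 46.3, 57.8 and 63.1 CPM (1.20 ± 0.23, adjusted p = 0.000737). Of 14 oxidative stress genes, Gclc, which makes glutathione, and Txnrd1, thioredoxin reductase, fell (-0.96 ± 0.18 and -0.57 ± 0.14). Hspd1, a mitochondrial chaperone, fell in the list of 21 unfolded protein and heat shock genes (-0.59 ± 0.10, adjusted p = 0.000333). Txnrd1 did not pass without 4 h replicate 3 (adjusted p = 0.0715). Phlda3 (adjusted p = 0.0516 to 0.149) and Atf3 (adjusted p = 0.0559 to 0.143) did not pass with any 1 of the 6 libraries left out.

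Signalling and inflammatory lists gave calls of single genes, to be read next to 4.42% higher and 4% lower of all genes. Of 19 immediate early genes, Atf3 and Nr4a2 fell (-0.61 ± 0.13, adjusted p = 0.00285) and Klf2, a factor of lymphocyte quiescence and recirculation, rose (7.23, 10.1 and 4.57 CPM at 4 h and 26.1, 17.6 and 15.5 CPM at 24 h; 1.45 ± 0.40, adjusted p = 0.0176). Of 18 NF-kappaB targets, the inhibitor Tnfaip3 (-1.04 ± 0.31), the subunit Rel (-0.78 ± 0.25) and the chemokine Ccl3 (-0.49 ± 0.15) fell and 0 rose. In 17 genes of TGF-beta feedback, Id3, an inhibitor of E proteins, was at 10.8, 38.9 and 16 CPM at 4 h and 5.935, 8.79 and 3.57 CPM at 24 h, and Pmepa1, which restrains SMAD signalling, at 6.02, 56.2 and 16 CPM at 4 h and 10.7, 8.79 and 5.95 CPM at 24 h. Both had their highest value in 4 h replicate 2, and for Pmepa1 the groups overlapped. The calls (Id3 -1.78 ± 0.47, adjusted p = 0.0152; Pmepa1 -1.51 ± 0.48, adjusted p = 0.0451) were lost without that library, where Id3 was at -1.12 ± 0.50 (adjusted p = 0.21) and Pmepa1 at -0.38 ± 0.45 (adjusted p = 0.729). Klf2 did not pass without 24 h replicate 1 or without 4 h replicate 1 or 3 (adjusted p = 0.0644 to 0.122). Tnfaip3 did not pass without 24 h replicate 2 or 3 or without 4 h replicate 1 or 2 (adjusted p = 0.0892 to 0.2). Rel did not pass without 24 h replicate 2 or 3 or without 4 h replicate 1 or 3 (adjusted p = 0.072 to 0.378). Ccl3 did not pass without 24 h replicate 2 or 3 or without 4 h replicate 1 or 2 (adjusted p = 0.0689 to 0.18). Id3 did not pass without 24 h replicate 3 or without 4 h replicate 2 (adjusted p = 0.101 to 0.21). Pmepa1 did not pass without 24 h replicate 1, 2 or 3 or without 4 h replicate 2 (adjusted p = 0.063 to 0.729). Without 4 h replicate 3 Rel was at -0.45 ± 0.27.

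Of 17 NK transcription factors 4 were called, 1 higher and 3 lower, next to 8.42% of all genes called in either direction. Nfil3, needed for NK development, fell from 149, 168 and 154 to 116, 114 and 101 CPM (-0.50 ± 0.12, adjusted p = 0.00681). Prdm1, which encodes Blimp-1, a factor of maturation (-0.40 ± 0.11), and Irf8 (-0.52 ± 0.16) fell as well, and Bach2, which restrains effector genes, rose (25.3, 24.5 and 26.3 CPM at 4 h and 43.9, 32.7 and 56 CPM at 24 h; 0.80 ± 0.24, adjusted p = 0.0321). Eomes (-0.27 ± 0.11) and Tbx21 (-0.08 ± 0.15), the T-box factors of NK cells, did not pass. Of 20 genes of the cytotoxic machinery 1 was called, Serpinb9, which guards the cell from its own granzyme B (-0.46 ± 0.13, adjusted p = 0.018), while Gzmb and Prf1 were at -0.22 ± 0.21 and 0.06 ± 0.16. Nfil3 did not pass without 24 h replicate 3 (adjusted p = 0.0726). Prdm1 did not pass without 24 h replicate 3 or without 4 h replicate 3 (adjusted p = 0.0651 to 0.167). Irf8 did not pass without 24 h replicate 1 or 3 or without 4 h replicate 1 or 2 (adjusted p = 0.0592 to 0.212). Bach2 did not pass without 24 h replicate 1 or 3 or without 4 h replicate 1, 2 or 3 (adjusted p = 0.0784 to 0.216). Serpinb9 did not pass without 24 h replicate 2 or 3 or without 4 h replicate 1 (adjusted p = 0.0627 to 0.101).

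The counts of this paragraph are to be read next to 4.42% higher and 4% lower of all genes. Of 16 genes of tissue residency and type 1 innate lymphoid cells, which TGF-beta can raise, 1 rose and 1 fell (median -0.04). The lower one was Prdm1, given above with the NK transcription factors. The higher one, Itga1, the integrin CD49a, was at 41, 74.9 and 73.2 CPM at 4 h, 121, 109 and 102 CPM at 24 h and 105, 111 and 114 CPM in unstimulated cells. The 4 h libraries were the lowest (0.82 ± 0.18, adjusted p = 0.00256). Itgae, the integrin CD103, was at -0.04 ± 0.90 (adjusted p = 0.989) and Nt5e, CD73, at -0.04 ± 0.54 (adjusted p = 0.982). Of 21 NK receptors and 14 BCL2 family genes 0 were called, and single genes fell in the lists of interleukin 15 and STAT5 (Il2ra -0.62, 1 of 14), interleukin 12, 18 and interferon gamma (Irf8 and Ifngr1 -0.39, 2 of 13) and MAP kinase feedback (Spry2 -0.57, 1 of 9). Single genes rose in the lists of type I interferon (Oas3 1.27, 1 of 15) and autophagy and lysosome (Ctsb 0.64, 1 of 18), and among 12 FOXO targets Klf2 rose and Irs2 fell (-0.96). Itga1 did not pass without 4 h replicate 1 (adjusted p = 0.0548). Il2ra did not pass without 24 h replicate 2 or 3 or without 4 h replicate 2 or 3 (adjusted p = 0.0509 to 0.16). Spry2 did not pass without 24 h replicate 2 or 3 or without 4 h replicate 1 or 2 (adjusted p = 0.0502 to 0.231). Ctsb did not pass without 24 h replicate 1 or 2 or without 4 h replicate 1, 2 or 3 (adjusted p = 0.0673 to 0.356). Ifngr1 (adjusted p = 0.0522 to 0.237) and Oas3 (adjusted p = 0.0613 to 0.157) did not pass with any 1 of the 6 libraries left out. Without 24 h replicate 1 Ctsb was at 0.38 ± 0.22.

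**Figure D4:**
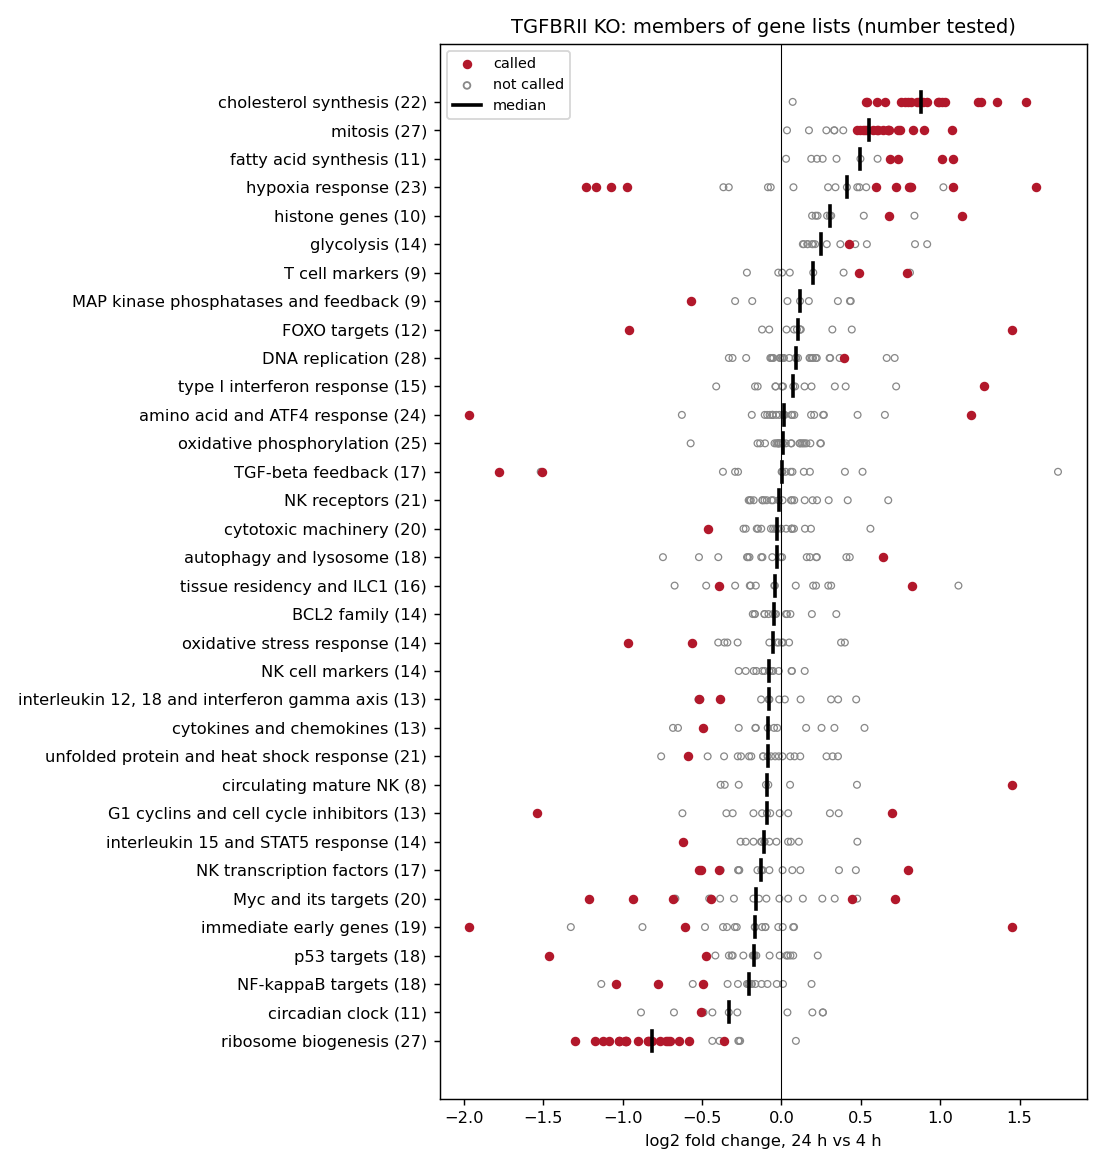
Log2 fold change, 24 h vs 4 h (x axis), of each tested member of the lists with at least 8 tested members (rows, number tested in brackets). Filled points were called, open points were not, and the black bar is the median. LXR targets, with 7 tested, are not shown. Cholesterol synthesis and mitosis stand at the top with medians of 0.88 and 0.55, ribosome biogenesis at the bottom with -0.82.

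Among called genes whose 3 and 3 libraries did not overlap and whose higher mean was at least 5 CPM, the 12 largest changes in each direction were mostly those of genes of few counts. Foxa3, a forkhead factor best known from liver, was at 2.41, 4.32 and 2.29 CPM at 4 h, 21.4, 21.4 and 15.5 CPM at 24 h and 16.5, 13.3 and 21.9 CPM in unstimulated cells. Every 4 h library was below every other one, and the log2 fold change was 2.66 ± 0.42 (adjusted p = 7.12e-05). Ccdc80, an extracellular matrix protein, went from 9.635, 11.5 and 22.9 to 55.8, 49 and 58.3 CPM (1.85 ± 0.37, adjusted p = 0.00109), and Arhgap19, a GTPase regulator of cell division, from 18.1, 15.8 and 4.57 to 48.7, 39 and 48.8 CPM (1.84 ± 0.34, adjusted p = 0.000562). Tspan32, a tetraspanin of blood cells, went from 3.61, 5.76 and 3.43 to 15.4, 15.1 and 17.9 CPM (1.91 ± 0.46, adjusted p = 0.00756).

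Fancd2os lies at the Fancd2 locus and its value of 2.32 ± 0.47 is uncertain, since the sources used here do not give the counting options. The other genes with the largest rises were Ndrg2 (2.23), Crocc (2.18), Ttyh2 (2.14), Wdr19 (1.95), Brdt (1.90), Trim16 (1.86) and Apbb1 (1.86). Ndrg2 did not pass without 24 h replicate 2 or without 4 h replicate 2 (adjusted p = 0.0569 to 0.0881). Crocc did not pass without 24 h replicate 3 or without 4 h replicate 2 or 3 (adjusted p = 0.0505 to 0.0789). Ttyh2 did not pass without 24 h replicate 1 or without 4 h replicate 1 or 3 (adjusted p = 0.063 to 0.132). Brdt did not pass without 24 h replicate 1 or 2 or without 4 h replicate 1 or 3 (adjusted p = 0.0743 to 0.172). Apbb1 (adjusted p = 0.0838 to 0.158) did not pass with any 1 of the 6 libraries left out. Without 4 h replicate 2 Brdt was at 3.61 ± 0.73.

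Of the genes with the largest falls, Abcb1b, a drug efflux pump of the P-glycoprotein family, was at 66.2, 60.5 and 73.2 CPM at 4 h, 11.9, 25.1 and 11.9 CPM at 24 h and 19, 37.4 and 40.1 CPM in unstimulated cells. Its 4 h libraries were the highest and its 24 h libraries mostly the lowest (-2.04 ± 0.29 against 4 h, adjusted p = 1.72e-05). Hes1, a target of Notch, was at 7.23, 31.7 and 10.3 CPM at 4 h and 3.56, 5.025 and 1.19 CPM at 24 h (-2.22 ± 0.63, adjusted p = 0.0236), with its highest value in 4 h replicate 2, and without that library it was at -1.39 ± 0.69 (adjusted p = 0.278). Bend3 (18.1, 23 and 3.43 CPM at 4 h and 1.19, 2.51 and 2.38 CPM at 24 h; -2.73 ± 0.83, adjusted p = 0.0358) had 1 of 3 4 h libraries close to the 24 h ones. Fam53b (-1.75), Dctd, the dCMP deaminase (-1.85), Sidt1 (-2.39) and the coactivator Ppargc1b (-1.78) completed the set with Snord22 (-2.20), a small nucleolar RNA inside the intron of a host gene whose reads cannot be told apart from it. Hes1 did not pass without 24 h replicate 1 or 3 or without 4 h replicate 2 (adjusted p = 0.0599 to 0.278). Bend3 did not pass without 24 h replicate 1, 2 or 3 or without 4 h replicate 1 or 2 (adjusted p = 0.0887 to 0.157). Fam53b did not pass without 24 h replicate 3 (adjusted p = 0.057). Dctd did not pass without 24 h replicate 2 or 3 or without 4 h replicate 1 (adjusted p = 0.0516 to 0.0616). Sidt1 did not pass without 24 h replicate 1, 2 or 3 or without 4 h replicate 1 (adjusted p = 0.0514 to 0.111). Ppargc1b did not pass without 24 h replicate 2 or 3 or without 4 h replicate 2 or 3 (adjusted p = 0.104 to 0.153). Snord22 (adjusted p = 0.0516 to 0.122) did not pass with any 1 of the 6 libraries left out.

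The 821 genes were also set beside unstimulated cells. The contrasts of 24 h with 4 h, 4 h with unstimulated and 24 h with unstimulated share libraries, so a gene that is extreme at 4 h takes opposite signs in the first and the second, and their values are only set side by side. The 431 genes higher at 24 h had a median log2 fold change of -0.54 at 4 h against unstimulated and 0.18 at 24 h against unstimulated. The 390 lower genes had 0.60 and -0.08. For 690 of the 821 the 95% interval of the difference between 24 h and unstimulated included 0, for 88 it lay above 0 and for 43 below. Over all 9751 genes it included 0 for 9032, a larger share. For 711 of the 821 it lay within 1 log2 unit of 0 on both sides, as for 8060 of all genes, and the median absolute difference was 0.17, against 0.14 over all genes.

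Against unstimulated cells, 796 genes (8.16%) were called at 4 h, 454 (4.66%) higher and 342 (3.51%) lower. At 24 h 2 genes (0.0205%) were called, both higher, and 0 (0%) lower. At an unadjusted p under 0.05 there were 706 at 24 h. The 2 genes were Chac1, at 17.7, 27.7 and 25.5 CPM unstimulated and 46.3, 57.8 and 63.1 CPM at 24 h (1.23 ± 0.23, adjusted p = 0.0318), and Kdm4b, at 35.5, 30.1 and 40.1 CPM and 60.5, 76.6 and 73.8 CPM (0.99 ± 0.19, adjusted p = 0.0318). This count rested on the fit: it was 0 with DESeq2, 47 when the 9 TGFBRII KO libraries were fitted alone and 199 when the 6 libraries of the contrast were fitted alone (the closing section gives the other fits). The lists differed in where they ended. Ribosome biogenesis had a median of 0.70 at 4 h, with 22 of 27 called higher, and -0.03 at 24 h. Cholesterol synthesis had -0.64, with 14 of 22 called lower, and 0.30, and mitosis -0.34, with 6 of 27 called lower, and 0.20, with no member of these lists called at 24 h against unstimulated. Fatty acid synthesis and the hypoxia response ended further from unstimulated cells, with medians of -0.14 and 0.15 at 4 h and 0.50 and 0.49 at 24 h.

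The change from 4 h to 24 h differed from that in cells with the receptor. A test of the difference between genotypes, the interaction, called 625 genes (6.41%) against WT, 380 (3.9%) with a higher and 245 (2.51%) with a lower value in TGFBRII KO. Against CIS KO it called 544 genes (5.58%), 273 (2.8%) higher and 271 (2.78%) lower. Of the 821 genes called between 4 h and 24 h, 296 were among the former and 247 among the latter. Between its own 2 libraries at 4 h and 4 at 24 h, WT had 733 calls (7.52%), 291 (2.98%) higher and 442 (4.53%) lower. CIS KO had 1513 (15.5%), 763 (7.82%) higher and 750 (7.69%) lower. At 4 h against unstimulated cells WT had 1172 calls (12%), 681 (6.98%) higher and 491 (5.04%) lower, and CIS KO had 1404 (14.4%), 781 (8.01%) higher and 623 (6.39%) lower.

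Ribosome biogenesis had 17 of 27 genes called lower against WT and 14 against CIS KO in that test, and 0 called higher against either. At 4 h against unstimulated cells its median was -0.47 in WT (8 lower, 1 higher) and -0.22 in CIS KO (2 lower, 0 higher), the other sign from the 0.70 in TGFBRII KO, and from 4 h to 24 h it was 0.21 in WT and -0.11 in CIS KO. Nolc1, for one, changed from 4 h to 24 h by 0.54 in WT and 0.18 in CIS KO, a difference to TGFBRII KO of -1.66 ± 0.23 (adjusted p = 8.06e-06) and -1.30 ± 0.19 (adjusted p = 7.02e-05).

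Cholesterol synthesis was also low at 4 h in the other genotypes, with 15 of 22 genes called lower in WT (median -0.77) and 16 in CIS KO (median -0.74). From 4 h to 24 h the median was 0.01 in WT (5 higher, 3 lower) and -0.13 in CIS KO (2 higher, 2 lower), next to 0.88 in TGFBRII KO. The interaction was called higher for 10 of 22 genes against WT and 15 against CIS KO. For Lss the difference was 1.41 ± 0.23 against WT (adjusted p = 0.0001) and 1.48 ± 0.20 against CIS KO (adjusted p = 1.53e-05), whereas for Sqle, squalene epoxidase, it was 0.05 ± 0.20 (adjusted p = 0.933) and 0.30 ± 0.16 (adjusted p = 0.353).

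Mitosis genes took opposite directions in TGFBRII KO and WT. From 4 h to 24 h, 24 of 27 fell in WT (median -1.53), 0 were called in CIS KO (median 0.06) and 17 rose in TGFBRII KO. The interaction was called higher for 24 genes against WT and for 5 against CIS KO. The genes with the smallest p in the test against WT that were also called in TGFBRII KO were all of this kind: Spc24 and Nuf2, of the NDC80 complex that grips microtubules (2.51 ± 0.23 and 3.39 ± 0.38), Nusap1 (2.58 ± 0.25), Bub1b, of the spindle checkpoint (1.93 ± 0.19), Ccna2, cyclin A2 (2.42 ± 0.24), Cdca3, a trigger of mitotic entry (2.16 ± 0.21), Kif2c, a microtubule depolymerase (3.23 ± 0.36), and Prc1, of the central spindle (2.32 ± 0.26). Within TGFBRII KO, some of these changes rested on single libraries. Spc24 did not pass without 24 h replicate 2 or without 4 h replicate 1 (adjusted p = 0.0805 to 0.148). Ccna2 did not pass without 24 h replicate 2 or without 4 h replicate 3 (adjusted p = 0.0595 to 0.113). Kif2c did not pass without 24 h replicate 2 (adjusted p = 0.0712). Prc1 did not pass without 4 h replicate 1 (adjusted p = 0.0532). Nuf2 (adjusted p = 0.0662 to 0.253) did not pass with any 1 of the 6 libraries left out. The difference to WT passed for all 8 genes with any 1 of the TGFBRII KO libraries of 4 h or 24 h left out. No WT library was left out in turn, so how far it rests on the 2 WT libraries at 4 h was not tested. WT 4 h replicate 1 held 297561 counts, the lowest total of all libraries. DNA replication, with 1 call in TGFBRII KO, had 19 of 28 lower in WT (median -0.85), and its interaction was called higher for 15 genes against WT and 0 against CIS KO.

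**Figure D5:**
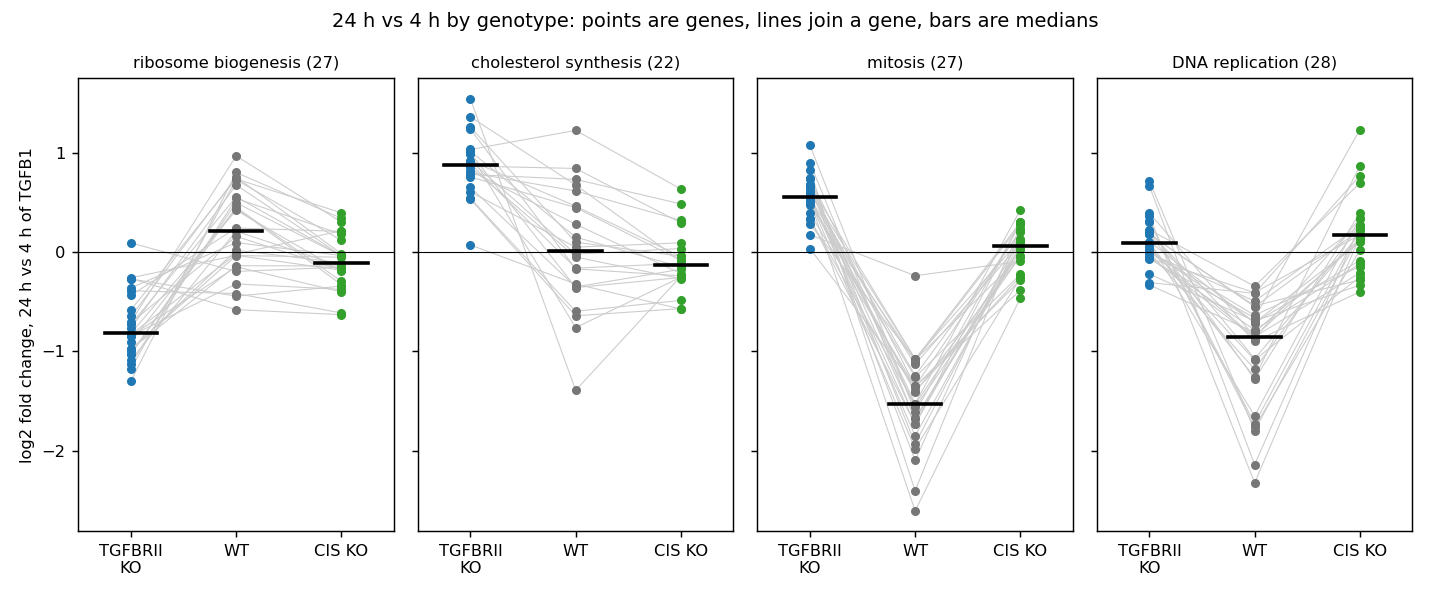
Log2 fold change, 24 h vs 4 h of TGFB1 (y axis), of each tested gene of 4 lists in TGFBRII KO, WT and CIS KO; lines join a gene and bars are medians. The mitosis median was 0.55 in TGFBRII KO, -1.53 in WT and 0.06 in CIS KO.

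Genes called at 4 h against unstimulated cells in both other genotypes were followed in TGFBRII KO as sets chosen without its libraries. Of 405 genes called higher at 4 h in both WT and CIS KO, 23 (5.68%) rose and 23 (5.68%) fell from 4 h to 24 h in TGFBRII KO, near the 4.42% and 4% of all genes, and their median was -0.01. Of 231 genes called lower at 4 h in both, 58 (25.1%) rose and 18 (7.79%) fell, with a median of 0.25. At 4 h against unstimulated TGFBRII KO cells, 55 of these 231 (23.8%) had been called lower and 16 (6.93%) higher.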

How the data were processed

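RNA was measured in sorted mouse NK cells. The labels' protocols name a column RNA kit and a strand-keeping (directional) Illumina library kit. The authors deposited 1 table of raw counts per gene with Entrez identifiers; FastQC, Trimmomatic, Subread, featureCounts, Picard, SAMtools and the build mm10 are named in the submitters' processing notes, without versions, counting options or strand setting, which the sources used here do not state. Values of overlapping genes are therefore uncertain.

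Symbols and coordinates came from RefSeq GRCm38.p6 for 25275 of 27179 identifiers, and the others held 0.96% of the counts. All 31 libraries were fitted in 9 groups with edgeR 4.0.16 (R 4.3.3), after filterByExpr and TMM scaling, because WT at 4 h had 2 libraries. Each contrast used edgeR's quasi-likelihood F-test. P-values were adjusted by the Benjamini-Hochberg method over 10275 genes and called at an adjusted p under 0.05; calls were counted over 9751 autosomal genes. Values are log2 fold change ± standard error (from the F statistic) and CPM with TMM scaling. The test was run first on simulated data. Intervals cover the fitted spread between libraries.

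Members and 41 gene lists were chosen with earlier results of these data known. Named genes were Tgfbr2, Cish, the 12 largest called rises and the 12 largest called falls among genes with no overlap of libraries and a higher mean of at least 5 CPM, up to 4 members of each list with the smallest p, the 8 genes with the smallest p in the interaction with WT that were also called in TGFBRII KO, and the genes called at 24 h against unstimulated. Unnamed gene models were left out. Some items are not reported here. Alternatives were other scalings, DESeq2 1.42.0, limma-voom (limma 3.58.1), other filters, other libraries in the fit, depth as a covariate, the replicate block and leaving out each TGFBRII KO library. Promoters were matched by identifier to RefSeq windows of GRCm38.p6.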

Additional observations from a re-analysis of the deposited data

Results flagged for a closer look

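The results below are changes from 4 h to 24 h that differed between TGFBRII KO and another genotype by the interaction term of edgeR's quasi-likelihood test; each value is the change in TGFBRII KO minus that in the other genotype, on the log2 scale. The groups of 3 TGFBRII KO libraries are too small for the test of single deviating libraries. The interaction called 380 genes higher and 245 lower against WT, and 273 higher and 271 lower against CIS KO.

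Ribosome biogenesis genes had negative differences: Nolc1 with -1.66 against WT and -1.30 against CIS KO, Nop58 with -1.24 and -0.62, Heatr1 with -1.0 and -0.88, and Mybbp1a with -0.69 against WT. Cholesterol synthesis genes had positive ones: Lss with 1.41 against WT and 1.48 against CIS KO, Fdft1 with 1.16 and 1.30, Sc5d with 0.91 and 1.12, and Cyp51 with 0.96 against CIS KO.

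Mitosis genes had positive differences against WT, with 3.39 for Nuf2, 3.23 for Kif2c, 2.69 for Cenpf, 2.58 for Nusap1, 2.51 for Spc24, 2.42 for Ccna2, 2.32 for Prc1, 2.16 for Cdca3, 2.09 for Ccnb2, 1.93 for Bub1b and 1.74 for Aurka. Against CIS KO, Nusap1 had 0.88, Spc24 0.85, Bub1b 0.77 and Cdca3 0.61. The last did not pass without 24 h replicate 2 or 3 or without 4 h replicate 1, 2 or 3 (adjusted p = 0.0573 to 0.123, edgeR). Chac1, called at 24 h against unstimulated cells, differed from WT by 2.01. WT at 4 h had 2 libraries, and the sex-linked transcripts differed between the replicate numbers of TGFBRII KO. The part of either in these differences was not tested.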

How the results depend on the processing

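No log2 fold change of a called gene named here changed sign under any alternative tried. Main counts were 431 higher and 390 lower at 24 h against 4 h. DESeq2 gave 241 and 234, a fit of the 9 TGFBRII KO libraries alone 719 and 762, depth as a covariate 670 and 646, and a fit of the 6 libraries of the contrast alone 633 and 820, an excess of lower calls. Leaving out each library gave 215 to 285 higher and 182 to 324 lower. At 4 h against unstimulated (796 called) DESeq2 gave 422, the libraries of the contrast alone 1294, the 9 libraries alone 1487, depth as a covariate 1316, and leaving out each library 392 to 571. At 24 h against unstimulated (2 called) library size alone, DESeq2 and a mean of at least 20 counts gave 0, no filter 77, the libraries of the contrast alone 199, the 9 libraries alone 47, depth as a covariate 13, and leaving out each library 0 to 3. The interaction with CIS KO (544 called) gave 283 with DESeq2 and 340 to 463 without each TGFBRII KO library of 4 h or 24 h. That with WT moved by less than 1.5 times, with no WT library left out. Of 91 called genes named by the rule, 38 stayed called in every setting run. The cause of these shifts was not tested. Depth limits genes of few counts.

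With replicate numbers as a replicate block the counts were 399 higher and 355 lower, 747 at 4 h and 0 at 24 h against unstimulated, 449 against WT and 420 against CIS KO. Of those 91 genes, 10 did not pass, among them Bach2, Fads2, Mylip, Kdm4b and Phlda3. The labels do not say that a number marks a shared animal or batch. Correlations of the deviations from the group means between same-numbered 4 h and 24 h libraries were 0.131, 0.031 and 0.063 for replicates 1, 2 and 3. Between 4 h and unstimulated libraries they were 0.072, 0.204 and 0.196, and between 24 h and unstimulated libraries 0.001, 0.104 and 0.028. Among libraries of the other times, each of 9 TGFBRII KO libraries correlated best with 1 of its own number.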

Other observations

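Genes on the X chromosome and the mitochondrial genome, which the counts above leave out, included members of the same lists. Nsdhl, an X-linked enzyme of cholesterol synthesis, was at 50.6, 43.2 and 36.6 CPM at 4 h and 117.5, 119 and 134.5 CPM at 24 h, with no overlap (log2 fold change 1.51 ± 0.17, adjusted p = 7.62e-07, edgeR). Dkc1, the pseudouridine synthase of the box H/ACA ribonucleoproteins, and Utp14a, of the small subunit processome, fell (-0.72 ± 0.13 and -0.66 ± 0.19, adjusted p = 0.000389 and 0.0234). Tsc22d3, a target of glucocorticoids and FOXO factors, rose (1.08 ± 0.18, adjusted p = 0.000167). In all, 10 of 330 tested X-linked genes rose and 5 fell, and of 13 mitochondrial genes ND5 fell (-0.60 ± 0.13, adjusted p = 0.00244).

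Sex-linked transcripts set replicate 2 apart at every time. Within each replicate number, Xist and the Y-linked sum were both highest at 4 h. Xist was at 12.6, 30.2 and 22.9 CPM in replicate 2 at 24 h, 4 h and unstimulated. In the same order it was at 90.2, 131 and 72.2 CPM in replicate 1 and 69.1, 127 and 77.8 CPM in replicate 3. The summed level of 4 Y-linked genes, again in that order, was 375.6, 451 and 388 CPM in replicate 2. It was 194.7, 248 and 192.5 CPM in replicate 1 and 198.8, 212.7 and 187 CPM in replicate 3.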
